A study of Mus musculus with 1600 samples.

Results

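The mouse mitochondrial genome carries 37 genes: 13 for proteins, 2 for ribosomal RNAs and 22 for transfer RNAs. All 37 were rows of the deposited tables, among 45792 genes in all, and were found as the rows whose GENCODE symbol starts with mt-. No measured value entered that choice, and wells were kept whatever their mitochondrial share of reads. The data are single-cell RNA-seq libraries of cells from isolated mouse glomeruli, the filtration units of the kidney, loaded on Fluidigm C1 arrays in which each well was photographed before lysis. All mice were Nos3-/- on C57BL/6 (they lack endothelial nitric oxide synthase) and 10 weeks old. The diabetes groups were injected from 8 weeks of age, on 5 days, with streptozotocin, a toxin of insulin-producing cells, at a daily 50 µg per gram of mouse, and the control groups were given citrate vehicle. Each of 2 experiments pooled 3 mice per condition and ran both conditions on 1 array, which gave 4 pools of 400 wells: control 1, control 2, diabetes 1 and diabetes 2. Values quoted for the 4 pools follow that order. Over the 1600 wells, 588 were imaged as empty, 833 with 1 cell, 98 with 2 cells and 81 with more cells or debris.

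The mitochondrial genome is a small circle of DNA that is transcribed from both strands into long precursors. The tRNAs lie between most of the other genes and are cut out of the precursors, which frees the mRNAs and rRNAs. The 13 proteins are all core subunits of the respiratory chain: complex I takes electrons from NADH, complex III passes them to cytochrome c, complex IV hands them to oxygen, and complex V makes ATP. The remaining subunits, and all proteins that copy, transcribe and process the mitochondrial genome, are encoded in the nucleus. In the kidney, the tubule cells that pump salt are known for their many mitochondria. In single-cell data a high mitochondrial share of reads is often used to discard wells; none were discarded for it here.

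The pools differed in more than treatment. Xist, expressed from the inactive X chromosome, stood at 406, 539, 2 and 2 CPM (reads scaled to a common library size, here of nuclear reads) in single-cell wells, and 4 Y-linked genes together stood at 0, 1, 184 and 189, although the labels call the mice sex-matched. Haemoglobin genes summed to 0, 16, 7038 and 4347 CPM, and a panel of immune markers to 819, 272, 9522 and 1926. Diabetes, sex and these cell mixtures cannot be told apart in any comparison of the conditions below. The defining endothelial, podocyte and mesangial panels of the glomerulus were detected in every pool, at unequal levels. The endothelial panel stood at 10050, 14090, 13750 and 13762 CPM. The podocyte panel stood at 9307, 7072, 1254 and 3247 and the mesangial panel at 4147, 5124, 771 and 2297. Both of these were lower in each diabetes pool than in either control pool, and this shift cannot be told apart from diabetes either. Median reads per single-cell well were 25555, 216648, 36364 and 152913, so experiment 2 was sequenced several times deeper than experiment 1. The labels do not say which mice the wells came from, and the 4 pools are the replicates throughout.

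Before any level is read, the genes had to be set against their copies in the nuclear genome. Nuclear DNA holds old insertions of mitochondrial sequence, and 16 annotated nuclear genes matched a mitochondrial gene over at least 100 bases at 90% identity or more. A run on the minus strand of chromosome 1 (GRCm38, 24611535 to 24616197) holds near-exact copies. The stretches below show why a read from the gene and a read from such a copy can or cannot be told apart. They come from the GENCODE M21 annotation of GRCm38 (mm10), are written 5′ to 3′ in the sense of the gene, and capitals mark each base at which the gene and one of the copies shown differ. Positions count from 1 at the gene's 5′ end.

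Bases 594 to 653 of mt-Co2 (chrM:7606-7665, plus strand), a subunit of complex IV, are set beside Gm28661 (chr1:24614913-24614972, minus strand) and Gm13341 (chr2:22587322-22587381, minus strand).
mt-Co2: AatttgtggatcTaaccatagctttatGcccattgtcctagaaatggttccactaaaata
Gm28661: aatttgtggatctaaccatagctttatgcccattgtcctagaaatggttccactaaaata
Gm13341: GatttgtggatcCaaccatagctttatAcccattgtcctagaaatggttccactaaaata
Gm28661 is the same as mt-Co2 over all 681 bases that align, while Gm13341 differs in this window by A594G, T606C and G621A.

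Bases 1063 to 1122 of mt-Co1 (chrM:6390-6449, plus strand), the catalytic subunit of complex IV, are set beside Gm29216 (chr1:24616129-24616188, minus strand) and Gm13340 (chr2:22588526-22588585, minus strand).
mt-Co1: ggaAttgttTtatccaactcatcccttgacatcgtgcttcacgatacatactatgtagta
Gm29216: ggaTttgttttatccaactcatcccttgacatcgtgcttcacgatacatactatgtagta
Gm13340: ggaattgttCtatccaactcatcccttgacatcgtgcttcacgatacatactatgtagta
Gm29216 carries A1066T and matches only bases 1063 to 1545 of mt-Co1. Gm13340 carries T1072C here and matches the whole gene at 97.6% identity.

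The first 60 bases of mt-Nd3 (chrM:9459-9518, plus strand), a small subunit of complex I, are set beside Gm28438 (chr1:24613060-24613119, minus strand), which differs from it by T3C, the one change in the 345 bases that align.
mt-Nd3: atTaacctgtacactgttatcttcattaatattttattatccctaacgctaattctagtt
Gm28438: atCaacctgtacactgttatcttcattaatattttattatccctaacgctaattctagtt

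For the copies that cover a whole gene, the read counts were near those of the gene. Over all wells, Gm28661 held 1.00 read for each read on mt-Co2, Gm10925 held 1.01 per read on mt-Atp6, Gm28437 held 1.01 per read on mt-Co3 and Gm10222 held 1.00 per read on mt-Nd4l, each a copy with no mismatch; an exact copy of part of mt-Nd4 did not do so and is described next. Gm28438, with its 1 change, held 0.985 per read on mt-Nd3. The diverged chromosome 2 copies held far less: 0.0398 for Gm13340 against mt-Co1, 0.0316 for Gm13341 against mt-Co2 and 0.0413 for Gm13339 against mt-Nd2. Those of Gm13340 were 0.0914, 0.0326, 0.0940 and 0.0334 in the 4 pools, higher in experiment 1, and Gm13341 and Gm13339 had the same order of experiments. The Gm28661 ratio held in single wells: over 1086 wells with at least 100 reads on mt-Co2, it had a median of 1.00 and a 5th to 95th percentile of 1.00 to 1.01.

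The partial copies give a view of where along a gene the reads lie. Gm29216 covers 483 of the 1545 bases of mt-Co1, its 3′ end, and held 0.898, 0.889, 0.869 and 0.890 reads per mt-Co1 read in the 4 pools. If reads that fit both were divided evenly, 94.1% of the reads on the pair lay in that last part of mt-Co1. Gm28439 covers the first 876 of the 1378 bases of mt-Nd4 without a mismatch and held only 0.0532 reads per mt-Nd4 read, which on the same assumption places 10.1% of the reads in that first part. Both genes were thus read mainly from their 3′ ends, as far as an even division holds; how such reads were divided is not stated in the labels or the submitters' processing notes.

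**Figure D1:**
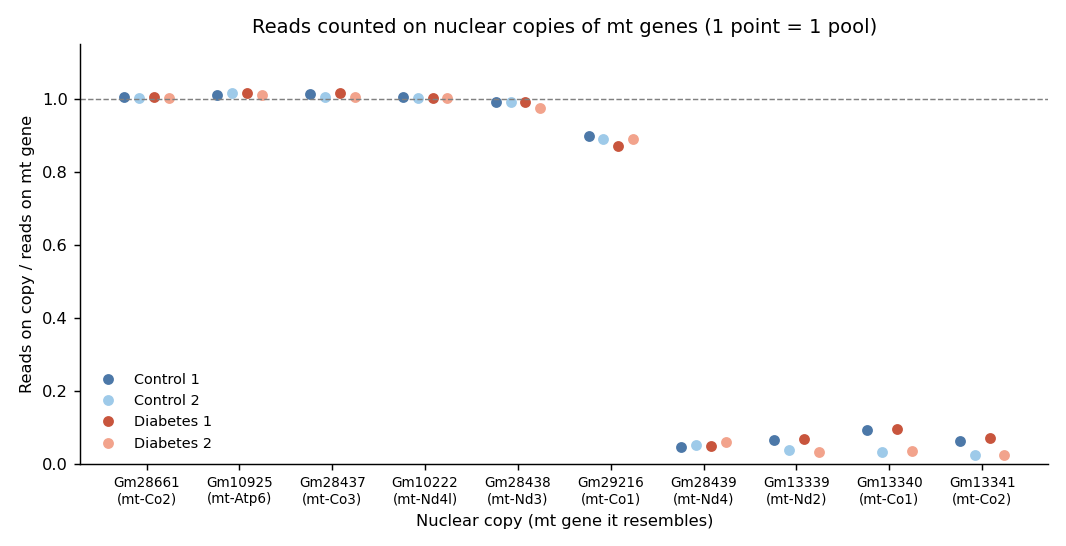
Reads counted on each nuclear copy divided by reads on the mitochondrial gene it resembles (y axis, ratio), for each copy (x axis), with 1 point for each of the 4 pools. The copies that cover a whole gene on chromosome 1 sit near 1, Gm29216 sits near 0.889, and Gm28439, which covers only the first part of mt-Nd4, sits near 0 with the diverged chromosome 2 copies.

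Counts on 5 of the protein genes (mt-Co2, mt-Atp6, mt-Co3, mt-Nd4l, mt-Nd3) are therefore close to 1 part in 2 of the reads of gene and copy together, and mt-Co1 is low for its 3′ end. The 3 copies with the most reads, Gm29216, Gm28437 and Gm28661, held 2.92e+06, 2.54e+06 and 1.002e+06 reads over all wells. All copies together took 5.58%, 3.82%, 5.45% and 4.92% of the pools' summed reads, beside 18.1%, 12.8%, 18.3% and 17.4% for the mitochondrial genes. Among annotated nuclear genes, the only ones searched, no copy of either rRNA gene or of mt-Nd1 was found. The tRNAs, 59 to 75 bases long, are shorter than the 100-base minimum, so the search could not find copies of them. Fractional values bore on the same genes: 88.4% of nonzero mt-Co2 values and 84.1% of mt-Atp6 values were not whole numbers within 0.001, against 23% for mt-Nd1 and 0.935% for mt-Nd6. The rRNA gene mt-Rnr2 had 92.2% fractional values with no copy found. Some members also overlap each other: mt-Atp8 and mt-Atp6 share bases, as do mt-Nd4l and mt-Nd4, and mt-Nd5 and mt-Nd6 overlap on opposite strands. Whether counting used strand is not given, so reads in those overlaps cannot be assigned here.

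Ribosomal RNA made up about as many mitochondrial reads as all mRNAs together. In single-cell wells with at least 500 genes (156, 218, 177 and 238 wells) the 2 rRNAs held 47.4%, 53.6%, 49.0% and 57.5% of mitochondrial reads and the 13 mRNAs 52.5%, 46.4%, 51.0% and 42.4%. With the copies' reads added to their genes the rRNA share was 36.2%, 41.3%, 37.8% and 44.8%. The 2 pools of experiment 2 had the larger rRNA share within each condition.

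mt-Rnr2, the RNA of the large mitochondrial ribosomal subunit (chrM:1094-2675), held 31.6%, 35%, 32.9% and 38.8% of mitochondrial reads. mt-Rnr1, the RNA of the small subunit (chrM:70-1024), held 15.8%, 18.6%, 16.1% and 18.8%. Both were lower in the experiment 1 pools, and for both genes the pools of the conditions overlap.

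Complex IV genes led the mRNAs, with 24.3%, 27.6%, 24.1% and 26.1% of mitochondrial reads, or 37.4%, 41.8%, 37.2% and 40.0% with copies added. mt-Co1 (chrM:5328-6872) held 9.60%, 12.8%, 9.96% and 13.7%, again with both experiment 2 pools higher. mt-Co3 (chrM:8607-9390), a structural subunit, held 10.1%, 10.9%, 9.70% and 8.88%, and mt-Co2, the subunit that receives electrons from cytochrome c, held 4.53%, 3.93%, 4.45% and 3.58%. For both genes each experiment's diabetes pool lay below its control pool; the pools of the conditions do not overlap for mt-Co3 and do for mt-Co2.

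The 7 complex I genes summed to 17.2%, 11.4%, 16.6% and 10.1%, higher in experiment 1 for both conditions. mt-Nd1 held 5.93%, 4.23%, 5.52% and 4.2% and mt-Nd4 held 6.72%, 3.93%, 6.42% and 3.08%, so that mt-Nd4 was the more weighted to experiment 1. mt-Nd2 held 2.67%, 1.82%, 2.67% and 1.56%, and mt-Nd5 held 1.18%, 1.2%, 1.44% and 1.06%. mt-Nd5 was the member of the complex with the least difference between experiments among those with over 1% of reads. mt-Nd3 held 0.585%, 0.175%, 0.477% and 0.189%, and mt-Nd4l held 0.0604%, 0.0578%, 0.0574% and 0.0476%. mt-Nd6, the one protein gene transcribed from the opposite strand to the other 12, held only 0.0162%, 0.0123%, 0.0102% and 0.0036%; it had 2023 reads in 214 of the 1600 wells.

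mt-Cytb (chrM:14145-15288), the single mitochondrial subunit of complex III, held 5.93%, 4.68%, 5.67% and 3.50%. The complex V pair summed to 5.17%, 2.67%, 4.58% and 2.69%: mt-Atp6, part of the proton channel, held 4.98%, 2.63%, 4.45% and 2.65%, and mt-Atp8 held 0.189%, 0.0402%, 0.135% and 0.0393%. As with complex I, the experiment 1 pools were higher for all 3 of these genes. The depth of the libraries moves with experiment, and its part in these differences was not tested; with each well thinned to 10000 reads, which left out 22 and 25 shallower wells of experiment 1 and 0 of experiment 2, mt-Atp8 was read in 65.7%, 28%, 69.7% and 37.0% of wells. Unthinned, 126, 197, 154 and 218 wells held mt-Atp8 reads.

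**Figure D2:**
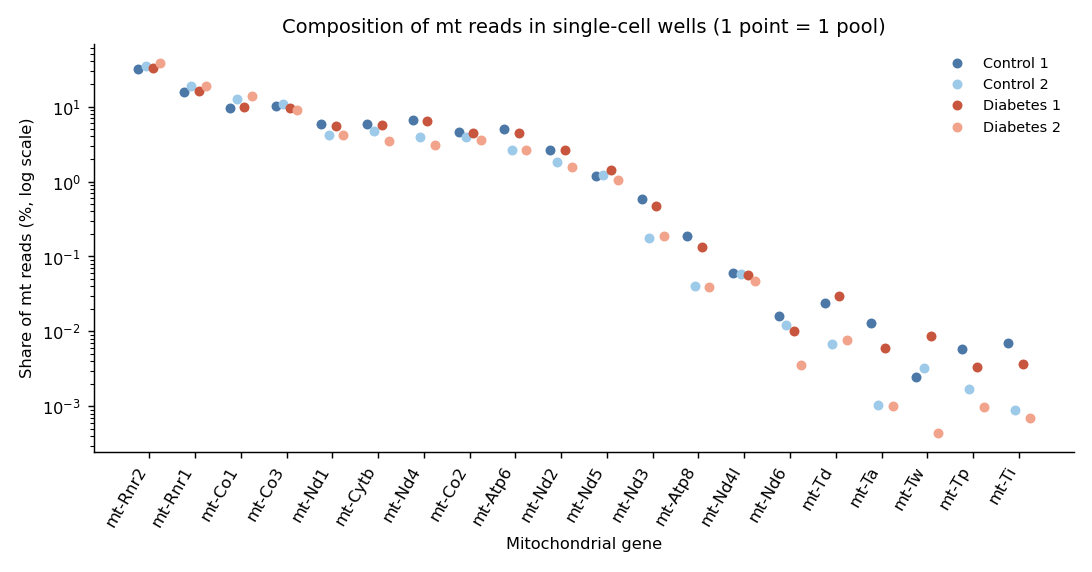
Share of mitochondrial reads (y axis, percent, log scale) held by each mitochondrial gene (x axis: the 15 mRNAs and rRNAs and the 5 most read tRNAs) in single-cell wells, with 1 point for each of the 4 pools. The 2 rRNAs hold the most reads, followed by mt-Co1 and mt-Co3 in an order that differs between pools, mt-Nd6 is below 0.02%, and the experiment 1 pools are apart from the experiment 2 pools for mt-Nd3 and mt-Atp8.

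Per length, the order changed. With copies added, reads per kilobase at a common library size (RPKM) over all single-cell wells were 38566 for mt-Co3, 35269 for mt-Rnr2, 29398 for mt-Rnr1, 24367 for mt-Co1, 17626 for mt-Co2 and 13453 for mt-Atp6. The complex I and III genes were below these, with mt-Nd1 at 7136, mt-Cytb at 5794, mt-Nd4 at 4638, mt-Nd2 at 2831, mt-Nd3 at 2069 and mt-Nd5 at 982. The least read were mt-Nd4l at 552, mt-Atp8 at 439 and mt-Nd6 at 24.9. Since mt-Co1 and mt-Nd4 were read mainly at one end, a level per full length understates their covered part.

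Transfer RNAs were close to absent, with 0.0762%, 0.0174%, 0.0645% and 0.0154% of mitochondrial reads for all 22. The 5 with the most reads over all wells were mt-Td (2700 reads), mt-Ta (643), mt-Tw (569), mt-Tp (464) and mt-Ti (358), and the other 17 held 7 to 336 reads each. mt-Td, the aspartate tRNA, is shown because it alone was read in most single-cell wells (83.0%, against 22.7% for mt-Ta and 5.58% for mt-Tw). It lies at chrM:6942-7011 on the plus strand, directly before mt-Co2, which starts at 7013, and nothing in it is capitalised.
mt-Td: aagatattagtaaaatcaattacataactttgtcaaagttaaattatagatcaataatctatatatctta
Of its nonzero values 82.1% were fractional. Thinned to 10000 reads per well it was read in 28.4%, 5.96%, 35.5% and 13.4% of wells, and unthinned in 114, 191, 140 and 210 wells, so at matched depth it was detected more in experiment 1.

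Every one of the 1600 wells held mitochondrial reads, and the share was higher in empty wells than in wells with a cell. Pool medians were 18.5%, 13.6%, 13.2% and 18.1% of reads in wells imaged empty, 15.0%, 10.7%, 12.2% and 16.7% with 1 cell, 10.7%, 10.3%, 9.69% and 13.5% with 2 cells, and 9.52%, 10.6%, 7.57% and 11.1% with more cells or debris. The 1-cell median lay below the empty-well median in 4 of 4 pools, by 3.54, 2.87, 1.00 and 1.42 percentage points (mean difference -2.21, SD 1.2, n = 4). The 2-cell median lay below the 1-cell median in 4 of 4 pools as well, by 4.33, 0.440, 2.55 and 3.15 points (mean -2.62, SD 1.63). The exact two-sided sign permutation test gave p = 0.13 for each, the smallest that 4 pools allow. Markers of other cells had negative estimates in 2-cell against 1-cell wells: the median log2 fold change was -3.97 over 7 tubular markers (3 at an unadjusted p under 0.05), -3.43 over 5 smooth muscle or renin markers, -3.12 over 3 fibroblast markers, -5.61 over 4 haemoglobin genes and -1.12 over 9 mesangial markers, against -0.01 over 14 endothelial markers. By edgeR 0 of these were called and DESeq2 called 4 tubular, 2 smooth muscle or renin, 2 fibroblast, 1 haemoglobin and 1 mesangial gene, beside 0.853% of all genes. Their part in the lower share was not tested. Empty wells were shallow, with median reads of 2212, 33610, 2397 and 32994.

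**Figure D3:**
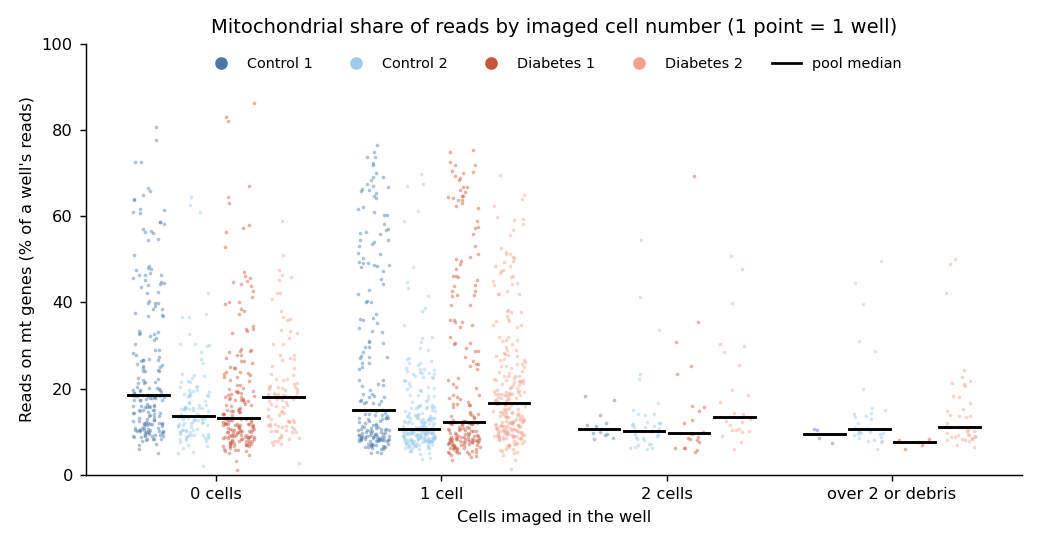
Mitochondrial reads as a percent of a well's reads (y axis) for wells imaged with 0, 1, 2 or more cells (x axis), with 1 point per well coloured by pool and a line at each pool's median. The medians lie between 13.2 and 18.5% in empty wells and between 9.69 and 13.5% with 2 cells, and single wells spread far beyond them.

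Gene by gene, the levels in 1-cell wells against empty wells were tested with edgeR on reads summed per pool, with pool as a block, and a gene was called at an adjusted p under 0.05. Of 24 members tested, 0 were called, as were 0% of the 12812 genes tested; 14 members had an unadjusted p under 0.05, beside 4.75% of all genes, and DESeq2 called 1 member, beside 0.279% of all genes. The smallest adjusted p was that of mt-Rnr1, estimated at -0.59 ± 0.08 (log2, SE; adjusted p = 0.241); its level was lower in 1-cell wells in 4 of 4 pools. For mt-Rnr2 the estimate was -0.55 (adjusted p = 0.329). The mRNAs had a median of -0.46, with 12 of 13 below 0, against a median of 0.04 over all genes. The exception was mt-Nd6, with +0.86 ± 0.42, positive in 4 of 4 pools. By CPM the mRNAs did not go the same way in all pools. In diabetes 1 all but mt-Atp8 were higher in 1-cell wells, by log2 ratios from 0.04 for mt-Co3 to 0.26 for mt-Nd3. In the other pools all but mt-Nd6 were lower. In 2-cell against 1-cell wells 0 of 22 members were called by edgeR or DESeq2, with 9 at an unadjusted p under 0.05 beside 4.96% of all genes. Of 12897 genes edgeR called 0% and DESeq2 0.853%. There the mRNAs had a median of -0.67 and the rRNAs of -0.33, against -0.34 over all genes. By CPM the mRNAs went both ways in control 2, with log2 ratios from -0.28 for mt-Nd5 to 0.33 for mt-Nd4l. In the other pools each mRNA with a ratio was below 0. The rRNA share of mitochondrial reads differed between 1-cell and empty wells by -2.11 points, with 2 of 4 pools on either side (46.3%, 52.6%, 57.3% and 55.4% in empty wells).

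Spike-in reads, deposited for experiment 1 only, separate amount from share, if each well received the same amount of spike-in RNA. Mitochondrial reads per spike-in read were 0.0384 and 0.0351 in empty wells of control 1 and diabetes 1, 0.45 and 0.528 in 1-cell wells, and 0.630 and 0.753 in 2-cell wells. Empty wells thus held 8.52% and 6.65% of the mitochondrial amount of a 1-cell well, and 4.53% and 4.46% of its nuclear amount. From 1 to 2 imaged cells the mitochondrial amount was 1.40-fold and 1.43-fold higher and the nuclear amount 2.35-fold and 2.00-fold. These are values of 1 pool per condition, with no replicate and no test, and 96.3% of the spike-in reads fell on 1 of 95 sequences.

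The 789 single-cell wells with at least 500 genes spanned 1.41% to 73.7% mitochondrial reads, with pool medians of 12.4%, 10.7%, 11.9% and 16.7%, or 15.3%, 13.7%, 14.8% and 21.1% with the copies counted in. Of them 150 (19%) exceeded 30%: 36, 15, 49 and 50 wells in the 4 pools. Wells above 30% had fewer nuclear reads than the rest of their pool in all 4 pools, with medians of 4614 against 27815, 21407 against 186616, 4943 against 37262, and 31936 against 138281. Over all classes together they had more Malat1, a long RNA kept in the nucleus, with median CPM of nuclear reads of 26672 against 21109, 29360 against 16532, 30314 against 16287, and 22248 against 18643. Within endothelial-like wells, the class with the most wells, this held only in diabetes 1 (22266 against 17458). The other medians there were 14684 against 21503, 10628 against 14726, and 16043 against 18759, over 7, 3, 8 and 11 wells above 30%. Spearman's rho of mitochondrial share with Malat1 in that class was 0.15, 0.46, 0.37 and 0.27. Tubular-like wells above 30% had more Malat1 in every pool (26673 against 23434, 20384 against 17192, 39388 against 20742, and 28990.5 against 21953.5). Mesangial-like and podocyte-like wells did in every pool but diabetes 2 (12432 against 17047 and 22652 against 23332). Immune-like wells did in both diabetes pools, and their control pools held no well above 30%. Over all classes together, the rRNA share of mitochondrial reads was lower in wells above 30% in each pool. The medians were 43.9% against 57.4%, 50.7% against 58.2%, 48.3% against 60.9%, and 59.9% against 60.8%. In diabetes 2 that last difference was under 1 point. Within endothelial-like wells this median was lower above 30% in every pool. It was higher above 30% in mesangial-like wells of control 2 (61.9% against 53.3%). In diabetes 2 it was higher in tubular-like (56.5% against 50.2%), podocyte-like (56.4% against 55.9%) and immune-like wells (65.63% against 65.59%). The other pools of these classes with wells above 30% had lower medians. Across wells, Spearman's rho between mitochondrial share and nuclear reads was -0.50, -0.61, -0.67 and -0.70 and that with Malat1 was 0.28, 0.45, 0.46 and 0.27; both measures come from the same libraries and are descriptions.

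Wells were clustered on nuclear genes with the 37 members and their 16 nuclear copies left out, so that none of their reads entered the classes. The mitochondrial share still moved with nuclear reads and Malat1, and whether the classes follow these as well was not tested. Clusters were named from marker panels. Doublets were left to the photographs, which showed 1 cell in each of these wells. The 789 wells fell into 6 classes: 340 were endothelial-like, 162 mesangial-like, 103 podocyte-like, 112 immune-like, 58 tubular-like and 14 fibroblast-like. Endothelial cells line the capillaries, mesangial cells hold the tuft together, and podocytes form the outer side of the filter. Tubule cells are epithelium from outside the glomerulus: 49 of the tubular-like wells formed a cluster led by Klk1, Umod and Slc12a3 and 9 a cluster led by Atp6v1g3, Tfcp2l1 and Car2. One of the 3 endothelial-like clusters was led by the immunoglobulin genes Igha, Igkc and Jchain, at a median mitochondrial share of 9.75% beside 9.69% and 12.1% in the other two.

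Tubular-like wells had the highest mitochondrial share in 3 of 4 pools. Their medians were 35.3%, 26%, 34.8% and 33.9%, against 9.06%, 9.41%, 9.60% and 12.5% in endothelial-like wells. The lowest tubular-like median lay above the highest endothelial-like one, and the difference was 26.3, 16.6, 25.2 and 21.4 points (mean 22.4, SD 4.35, higher in 4 of 4 pools, exact permutation p = 0.13, the smallest possible). Above 30% were 63.8% of tubular-like and 8.53% of endothelial-like wells, so that a filter at 30% would remove most of this class. In experiment 1 mitochondrial reads per spike-in read were 2.39 and 3.17 in tubular-like against 0.335 and 0.412 in endothelial-like wells, while nuclear reads per spike-in read were 2.95 and 4.79 against 2.82 and 3.48.

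**Figure D4:**
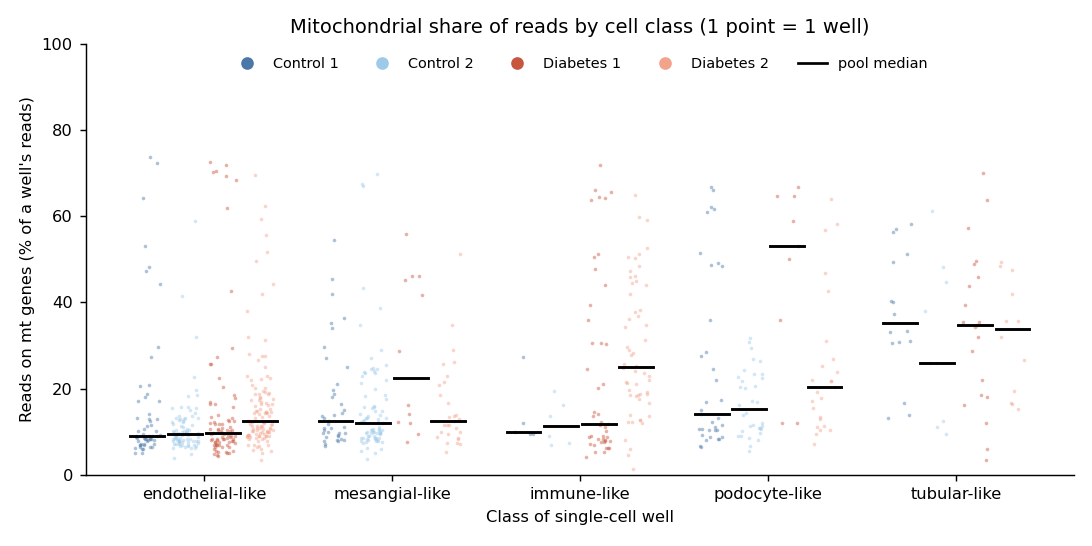
Mitochondrial reads as a percent of a well's reads (y axis) by class of single-cell well (x axis), with 1 point per well coloured by pool and a line at each pool's median. Tubular-like medians lie between 26 and 35.3% and endothelial-like medians between 9.06 and 12.5%, with the diabetes 1 podocyte-like median apart at 53.2%.

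In levels, mt-Co1 stood at 40106, 65606, 42323 and 56441 CPM of all reads in tubular-like wells and at 14327, 11002, 9299 and 17498 in endothelial-like wells. mt-Cytb stood at 22908, 26979, 23146 and 15107 against 8430, 3406, 6136 and 4723, and mt-Rnr2 at 89825, 72554, 107463 and 111558 against 53108, 41530, 46799 and 56198. Every tubular-like pool was above every endothelial-like pool for these 3 genes. By edgeR, 14 of 22 members tested rose and none fell, against 2.72% of all 9742 genes called higher and 3.74% called in either direction; the median log2 fold change was 2.85 over the members and -0.55 over all genes.

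The called members were both rRNAs and 12 of 13 mRNAs. On the log2 scale mt-Co1 rose by 2.91 ± 0.34 (SE; adjusted p = 0.00138), mt-Cytb 2.91 ± 0.39 (adjusted p = 0.00246), mt-Nd3 3.03 ± 0.46 (adjusted p = 0.00443) and mt-Nd5 2.67 ± 0.32 (adjusted p = 0.00152). mt-Nd4, mt-Co3, mt-Atp6, mt-Nd1, mt-Nd2, mt-Nd4l, mt-Co2 and mt-Atp8 lay between 2.73 and 2.91. The rRNAs had smaller estimates, 1.85 ± 0.25 for mt-Rnr1 (adjusted p = 0.00277) and 1.87 ± 0.26 for mt-Rnr2 (adjusted p = 0.00293). mt-Nd6 had an estimate of 2.38 ± 1.00 (adjusted p = 0.256), with 66, 13, 56 and 22 CPM against 19, 17, 11 and 5.5. The 7 tRNAs tested all had positive estimates and none was called (smallest adjusted p = 0.0756); DESeq2 called all 22 members, beside 16.7% of all genes. Of the 11 nuclear copies tested, 10 were called higher, and they share reads with their genes.

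Within wells of at most 30% mitochondrial reads, edgeR called 2 of 16 members tested, beside 85 of all 8475 genes. They were mt-Co1 at 1.5 (adjusted p = 0.00450) and mt-Co3 at 1.42 (adjusted p = 0.0199). All 14 members called over all wells kept a positive estimate there, from 0.71 to 1.83, and the median share differed by 5.22 points instead of 22.4. That filter left 3, 5, 8 and 5 tubular-like wells in the 4 pools.

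The rRNA part of mitochondrial reads was smaller in tubular-like wells. The rRNAs held 39.9%, 30.2%, 43.4% and 48.7% of mitochondrial reads in tubular-like wells against 49.0%, 64.1%, 56.7% and 60.3% in endothelial-like wells, lower in 4 of 4 pools (mean difference -17.0 points, SD 11.4, exact permutation p = 0.13). In wells of at most 30% mitochondrial reads the difference was -9.36 points, with 55.5%, 60.03%, 56.6% and 39.7% against 59.7%, 64.3%, 62.5% and 62.7%, and from medians over all wells it was -9.07. The mRNAs summed to 202985, 247096, 203642 and 172450 CPM against 79325, 34793, 53317 and 55483, and the rRNAs to 134829, 107191, 156338 and 163755 against 76256, 62209, 69883 and 84149. Within the mRNAs, mt-Co1 held 19.8%, 26.6%, 20.8% and 32.7% of mRNA reads against 18.1%, 31.6%, 17.4% and 31.5%, and mt-Co3 held 18.3%, 24%, 19.7% and 20.3% against 19.99%, 21.5%, 18.7% and 20.4%, with the direction mixed over pools for both. Other members spread further: in control 2 the log2 ratio of levels was 2.09 for mt-Nd5 and 3.34 for mt-Nd3, and in diabetes 2 it was 0.45 for mt-Nd4l and 2.17 for mt-Nd3. The tubular panel stood at 22242, 15069, 11403 and 9629 CPM of nuclear reads in this class, and the endothelial panel at 1529, 12438, 3008 and 2721, which was highest in control 2, the pool with 9 wells. The part of that admixture in the result was not tested.

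Podocyte-like wells also had a higher share than endothelial-like wells in 4 of 4 pools, with 1 pool far from the rest. Their medians were 14%, 15.2%, 53.2% and 20.4%, above endothelial-like wells by 4.95, 5.83, 43.6 and 7.94 points (mean 15.6, SD 18.7, 4 of 4 pools, exact permutation p = 0.13). The diabetes 1 value rests on 9 wells. In those wells the podocyte panel was lowest of the 4 pools (33742, 39753, 20924 and 25315 CPM of nuclear reads) and Malat1 highest (25488, 29674, 41671 and 25412). Their nuclear reads per spike-in read were 0.556, against 3.10 in podocyte-like wells of control 1, and their mitochondrial reads per spike-in read 0.936 against 0.593.

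Of 19 members tested against endothelial-like wells, 2 rose, both subunits of complex I, beside 3.21% of 10260 genes called higher and 6.29% in either direction. mt-Nd4 stood at 11742, 7921, 43427 and 8860 CPM against 9752, 2534, 6661 and 4217, log2 ratios of 0.27, 1.64, 2.70 and 1.07. Its edgeR estimate was 1.93 ± 0.58 (adjusted p = 0.0368). mt-Nd5 stood at 2474, 2569, 5483 and 2792 CPM against 1584, 1034, 1410 and 1364, log2 ratios of 0.64, 1.31, 1.96 and 1.03. Its edgeR estimate was 1.77 ± 0.51 (adjusted p = 0.0270). For mt-Nd5 no podocyte-like pool overlapped an endothelial-like one; for mt-Nd4 they overlap. The mRNAs had a median of 1.6, with 12 of 13 positive, and mt-Nd6 was the exception. Without diabetes 1 both estimates were 1.12 and neither gene was called (adjusted p = 0.157 for mt-Nd4 and 0.140 for mt-Nd5). In wells of at most 30% mitochondrial reads they were 1.01 (adjusted p = 0.191) and 0.58 (adjusted p = 0.772). Calls were also lost without control 2 and without diabetes 2, but there the estimates stayed at 1.90 and 1.97 for mt-Nd4 and at 1.81 and 1.75 for mt-Nd5. Without control 1, 10 of 16 members were called, beside 450 of all 11051 genes. Neat1, a nuclear RNA, rose in the same comparison by 3.06 (adjusted p = 0.000179), and Malat1 was not called.

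Mesangial-like wells had medians of 12.5%, 12%, 22.5% and 12.5%, above endothelial-like wells by 3.46, 2.61, 12.9 and 0.0284 points. Their mt-Rnr2 stood at 42927, 42459, 54410 and 41957 CPM and their mt-Co1 at 11070, 14430, 14392 and 16141. Against endothelial-like wells 0 of 19 members were called by edgeR or by DESeq2 (of 11120 genes edgeR called 6.01% and DESeq2 15%), and 0 had an unadjusted p under 0.05, beside 16.2% of all genes, with an mRNA median of 0.08. Immune-like wells had medians of 9.92%, 11.3%, 11.7% and 25%, higher by 0.859, 1.89, 2.09 and 12.5 points, and 0 of 16 members were called by edgeR or by DESeq2, with 1 at an unadjusted p under 0.05, beside 14.3% of all 10028 genes (edgeR called 4.06% and DESeq2 13.4%). Their control pools held only 5 and 6 wells. Their rRNA share was 61.5%, 69.0%, 47.6% and 62.1%, above endothelial-like wells in 3 of 4 pools.

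**Figure D5:**
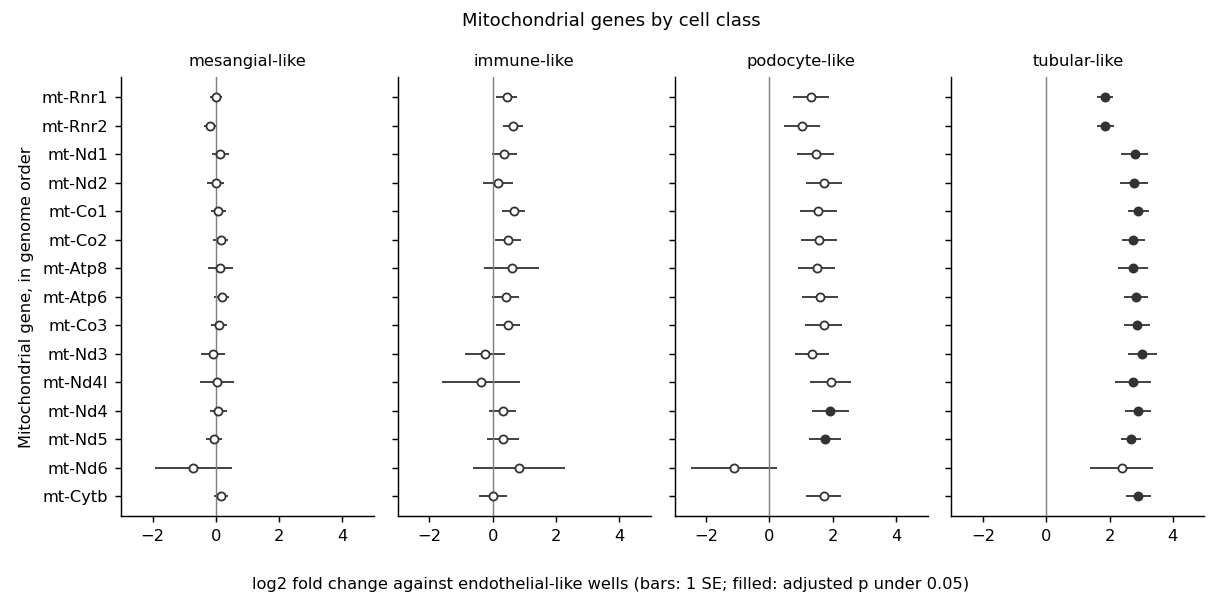
Log2 fold change of each mitochondrial mRNA and rRNA (rows, in genome order) against endothelial-like wells (x axis, log2), 1 panel per class, with bars of 1 SE and filled points at an adjusted p under 0.05. In the tubular-like panel 14 genes are filled, with both rRNAs left of most mRNAs, and in the podocyte-like panel mt-Nd4 and mt-Nd5 are.

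The study's own contrast is diabetes against control. The median mitochondrial share of single-cell wells differed by 2.75 points (exact permutation p = 0.667 over 4 pools, which cannot go below 0.33), with -0.446 in experiment 1 and 5.95 in experiment 2. The rRNA share of mitochondrial reads differed by 2.76 points (exact permutation p = 0.667), 1.6 in experiment 1 and 3.93 in experiment 2. By edgeR, with experiment as a block, 0 of 30 members were called over all single-cell wells, as were 0% of 15836 genes. Of the members 0 had an unadjusted p under 0.05, beside 6.5% of all genes. DESeq2 called 0 members, beside 575 of all 14607 genes. mt-Rnr2 had an estimate of 0.43 ± 0.22 (adjusted p = 0.804), mt-Co1 0.40 ± 0.22 (adjusted p = 0.847) and mt-Cytb 0.09 ± 0.20 (adjusted p = 0.999).

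Within the classes tested for diabetes, too, edgeR and DESeq2 called 0 members. Tubular-like wells were not tested for diabetes. Of all genes DESeq2 called 88 of 11211 in endothelial-like, 36 of 8611 in mesangial-like and 47 of 7168 in podocyte-like wells, and the percents called below are those of edgeR. In endothelial-like wells 0 of 24 were called and 0 had an unadjusted p under 0.05, beside 4.56% of all 12687 genes (0.0315% were called), and the mRNA median was 0.11. In mesangial-like wells 0 of 19 were called, with 1 at an unadjusted p under 0.05, beside 2.73% of all 10945 genes (0.00914% were called), and the median was 0.17. In podocyte-like wells 0 of 18 were called, with 1 at an unadjusted p under 0.05, beside 3.51% of all 9341 genes (0% were called). The mRNA median was 1.68 there, against -0.42 over all genes, and the diabetes 1 pool of this class is the 9 wells described above. Without diabetes 2 this comparison sets the control pools against those 9 wells alone, with no experiment block, so its calls are not read.

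Immune-like wells stood apart in unadjusted values: 12 of 17 members had an unadjusted p under 0.05, beside 3.89% of 8769 genes, and 0 were called by edgeR or DESeq2. Of all genes edgeR called 0.0228% and DESeq2 6 of 4179. For the median gene here, edgeR took the variance from a trend over all genes, not from the gene's own spread between pools. mt-Cytb stood at 2346, 2765, 8771 and 6601 CPM, with both diabetes pools above both control pools and an estimate of 1.79 ± 0.45 (adjusted p = 0.101). mt-Co1 stood at 11041, 13432, 18169 and 29982, also without overlap, with 1.151 ± 0.29 (adjusted p = 0.101). mt-Rnr2 stood at 55941, 57121, 53103 and 107247, where the pools overlap, with 0.63 ± 0.19 (adjusted p = 0.550). The median of the mRNAs was 1.40 and that of all genes 0.97. The control pools of this class are the 5 and 6 wells above. In immune-like wells the endothelial panel stood at 831, 9130, 1434 and 7142 CPM of nuclear reads and the immune panel at 29280, 8688, 31818 and 12570, so that control 2 held more of the endothelial than of the immune panel; the part of this in the result was not tested. Further, the class mixed differently by pool: a cluster led by MHC class II genes held 1, 0, 21 and 3 of its wells and the other cluster 4, 6, 24 and 53.

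The nuclear-encoded machinery of mitochondrial gene expression was read from a list of 29 genes: Tfam, Polrmt and Tfb2m start transcription, Polg and Twnk copy the DNA, Lrpprc and Slirp hold the mRNAs, and Elac2 and Trmt10c cut out the tRNAs. Between 19 and 27 were tested in each comparison and 0 were called in any of the 11 by edgeR. In tubular-like against endothelial-like wells the list's median was -0.81, beside 2.85 for the mitochondrial members. There 1 of 24 had an unadjusted p under 0.05, as did 1645 of all 9742 genes. In the other comparisons 0 to 4 of the list had one, beside 2.73% to 16.2% of all genes. DESeq2 called 1 of the list in each of 3 comparisons: Fastkd3 of 26 in 2-cell against 1-cell wells (0.853% of all genes), and Grsf1 of 26 in mesangial-like (15%) and Lrpprc of 24 in tubular-like wells (16.7%), both against endothelial-like wells. The last 2 counts lie below the share over all genes, and the other 8 comparisons gave 0. Of 78 nuclear genes of the mitochondrial ribosome 1 was called in 1 comparison: Mrps6 rose in tubular-like wells by 3.50 on the log2 scale (adjusted p = 0.0309), beside 3.74% of all genes. DESeq2 called 11 of the 76 tested there (16.7% of all genes), 2 of 76 in podocyte-like (14.5%), 1 of 77 in mesangial-like (15%) and 3 of 77 in immune-like wells (13.4%), shares below those of all genes.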

How the data were processed

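Glomerular cells from Nos3-/- mice were sequenced on 2 Fluidigm C1 arrays. The submitters' processing notes name cutadapt 1.11, STAR 2.4.2a, BWA 0.7.17-r1188, featureCounts 1.5.1 and mm10, with no roles, and no molecular identifiers were counted. The gene tables the authors deposited hold expected counts, which need not be whole, for 45792 genes and 1600 wells, and the spike-in table they deposited holds counts for experiment 1. GENCODE M21 named 45143 genes and left 649 unnamed.

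From these values, reads were summed per pool and class or imaged number, rounded, and tested with edgeR 4.0.16 (quasi-likelihood, TMM scaling, filterByExpr, Benjamini-Hochberg over all genes tested) in R 4.3.3, with DESeq2 1.42.0 as an alternative. The block was the pool or, for diabetes, the experiment, since each array held both conditions. CPM here are computed from summed reads without TMM scaling, so edgeR estimates need not equal log2 ratios of CPM. The 789 single-cell wells with at least 500 genes were clustered in scanpy 1.11.5 (2000 variable genes without mitochondrial genes or their nuclear copies, 15 components, 15 neighbours, Leiden resolution 0.8). Thinned values use 10000 reads per well. Each class compared with endothelial-like wells held at least 5 wells in every pool. Diabetes was tested in endothelial-like, mesangial-like, podocyte-like and immune-like wells. Tubular-like wells also met that minimum, but diabetes was not tested in them. Copies were found with BLAST 2.17.0. Shares were compared over pools by exact two-sided permutation tests, 14 differences of shares and rRNA shares in all; none can pass 0.05, so no adjustment was made. Pools of 3 mice are the only replicates. The edgeR p-values rest on the spread between pools, moderated toward a trend over all genes. For diabetes in podocyte-like and immune-like wells that moderation was complete for the median gene, whose own spread then did not enter.

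The mitochondrial genes were all described: every mRNA and rRNA, the 5 tRNAs and 3 copies with the most reads, called members of the machinery list, Malat1, Neat1 and the sex-linked genes. Members and lists were chosen with earlier results of these data known. The comparison of shares for 2 cells against 1 and between classes, the ribosome list and the setting that adds copies to their genes were chosen after seeing the data. The procedure was tested on simulated data for tubular-like against endothelial-like wells (9742 genes): 0%, 14%, 44% and 74% of 50 genes each changed 2-, 4-, 8- and 16-fold were called, with 0 false calls. For diabetes against control over all single-cell wells (15836 genes) the shares were 4%, 40%, 74% and 72%, with 8 false calls.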

Additional observations from a re-analysis of the deposited data

Results flagged for a closer look

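In immune-like against endothelial-like wells, 7 mRNAs were below the endothelial-like level in both control pools and above it in both diabetes pools. The mean log2 ratio was higher in the diabetes than in the control pools by 1.10 for mt-Atp6, 1.57 for mt-Cytb, 1.42 for mt-Nd2, 2.11 for mt-Nd3, 1.10 for mt-Nd4, 2.73 for mt-Nd4l and 1.94 for mt-Nd5. The control pools held 5 and 6 immune-like wells, and the difference was not tested. For mt-Nd2, the diabetes minus control log2 ratio was above 0 in both experiments in podocyte-like and in immune-like wells and below 0 in both in mesangial-like wells. It exceeded the mesangial-like value by 1.22 in podocyte-like and by 1.82 in immune-like wells, and these differences were not tested either. In experiments 1 and 2 the mt-Nd2 ratios were 1.99 and 0.28 in podocyte-like, 1.53 and 1.93 in immune-like and -0.01 and -0.17 in mesangial-like wells, so the podocyte-like excess was far smaller in experiment 2; its experiment 1 value rests on the 9 podocyte-like wells of diabetes 1.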

How the results depend on the processing

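Over all results and settings together, counts of called members stayed within 1.5 times the main count in 135 cases and moved further in 27, shares stayed within 1 SD in 127, moved further in 4 and changed sign in 4, and single called genes stayed called in 212 and lost their call in 28, with no change of direction. The cause of a change was not tested. Tubular-like against endothelial-like gave 14 calls, 22 by DESeq2, 2 at no more than 30% mitochondrial reads, 15 with no replicate block, and 12 to 14 when 1 pool was left out. Of all genes, the main fit called 364 of 9742 and DESeq2 1630 of 9742. The 30% limit gave 85 of 8475 and no replicate block 405 of 9742. Leaving 1 pool out gave 187 of 10332, 528 of 9891, 186 of 9615 and 311 of 9655. Podocyte-like against endothelial-like gave 2 calls and was the least stable: 1 with RLE scaling, with no replicate block, with nuclear library sizes or with at least 1000 genes per well, 5 by DESeq2, with whole counts only or with copies added, 9 in thinned wells, 11 with no low-count filter or no gene minimum, 0 at no more than 30%, and 0 to 10 when 1 pool was left out. Of all genes, the main fit called 645 of 10260 and DESeq2 1489 of 10260. Whole counts only gave 754 of 10166 and copies added 647 of 10249. Thinned wells gave 548 of 5548, no low-count filter 778 of 21545, no gene minimum 858 of 9304 and the 30% limit 499 of 9947. RLE scaling gave 601, no replicate block 464 and nuclear library sizes 636 of 10260, and at least 1000 genes 656 of 10158. Leaving 1 pool out gave 450 of 11051, 300 of 9999, 308 of 11063 and 548 of 9972. Immune-like against endothelial-like gave 0 calls, 1 at no more than 30%, 2 with no gene minimum and 0 to 1 when 1 pool was left out. Of all genes, the main fit called 407 of 10028, the 30% limit 381 of 9910 and no gene minimum 410 of 9480. Leaving 1 pool out gave 371 of 11287, 461 of 10376, 159 of 10458 and 295 of 9589. The 1-cell against empty count of 0 became 1 by DESeq2 or with whole counts only and 2 with no low-count filter. Of all genes, these settings called 24 of 8589, 3 of 12623 and 11 of 26053. For diabetes against control, podocyte-like wells gave 0 to 13 calls when 1 pool was left out, and immune-like wells 4 with no low-count filter, 1 in thinned wells and 2 with copies added.

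From summed reads instead of medians, the mitochondrial share differed by -4.14 points between 1-cell and empty wells and by -4.62 between 2-cell and 1-cell wells. The tubular-like difference became 5.22 points at no more than 30% and 30.03 with copies added. The rRNA share differences that changed sign were diabetes against control (-0.349 without control 1, -1.51 without diabetes 2, range -1.51 to 7.04), 1-cell against empty wells (0.400 without diabetes 1, range -3.54 to 0.400) and immune-like against endothelial-like (-0.777 without control 1, range -0.777 to 6.40). With a Leiden resolution of 1.2 the endothelial clusters went unnamed, so comparisons with that class could not be formed. Intervals of single wells were not used, and with 4 pools shares cannot pass a permutation test. Members with few reads, such as mt-Nd6 and the tRNAs, could be compared only where they passed the filter.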
